A study of Mus musculus with 4 samples.

Results

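Bidirectional gene-pair promoters are the short stretches of DNA between 2 genes that start close together and are transcribed away from each other. They were taken from curated RefSeq transcripts on the mm10 assembly as pairs of genes on opposite strands of chromosomes 1 to 19, with start sites at most 1000 bp apart. Each region ran from one start site to the other plus 500 bp on each side, and by this rule the stretch between the start sites lies outside both paired transcripts. The rule gave 1535 regions with 3029 genes, and 2384 of the 20021 coding genes (11.9%) had a start site in one. In 913 regions both genes were coding, in 587 a coding gene faced a noncoding one, and in 35 both were noncoding. The median spacing was 149 bp, with quartiles at 80 and 291 bp. Among these regions, 54 overlapped another region and 38 genes stood in more than 1 pair, so the members are not all separate loci.

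Open chromatin was mapped in visceral fat of 8-week-old CD-1 mice, an outbred stock, with ATAC-seq, whose transposase cuts and tags accessible DNA. There were 4 libraries, 2 in each group. Ancestral dams received daily intraperitoneal injections from embryonic day 7.5 to 13.5 of pregnancy, of sesame oil for the controls and of bisphenol A (BPA), a plastic component with hormone-like activity, at 50 mg/kg for the other group. The sampled mice were untreated descendants bred without sibling matings. The labels name F3 for the BPA mice and the study's methods name F4, so the generation is not settled here, and the labels give neither sex nor batch. The study's text speaks of 4 mice for the 4 libraries, while the labels tie no library to an animal. The list deposited for BPA 2 bears replicate number 3 in its own name, and it was taken as BPA 2 from its sample record.

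A shared promoter of this kind usually lies in a CpG island, lacks a TATA box and recruits polymerase in both directions from one nucleosome-free stretch. Genes arranged this way are often housekeeping genes, with DNA repair, the mitochondrion and protein quality control well represented. Where a coding gene faces a noncoding one, the noncoding transcript often starts from the same open stretch.

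Sequences of 8 regions show the range of what follows. They were read from RefSeq GRCm38.p6, the assembly that mm10 names, on the plus strand. They run from 10 bases outside one start site to 10 bases outside the other, or cover the 300 central bases where the spacing was wider. Capitals mark matches on either strand to a short list of factor motifs: NRF1 (GCATGCGC), ETS/GABPA (CCGGAAGT), YY1 (AAGATGGC), the CCAAT box of NF-Y (CCAAT), the GC box of Sp1 (GGGCGG), CRE (TGACGTCA), the E-box of USF (CACGTG) and the CTCF core (CCACNAGG).

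The first 2 had the strongest peaks of all coding pairs. Pdcd10/Serpini1 at chr3:75557023-75557322 joins Pdcd10, a gene of cerebral cavernous malformation, to the neuroserpin gene. Mcm4/Prkdc at chr16:15637484-15637783 joins a subunit of the replicative helicase to the catalytic subunit of DNA-dependent protein kinase.
Pdcd10/Serpini1: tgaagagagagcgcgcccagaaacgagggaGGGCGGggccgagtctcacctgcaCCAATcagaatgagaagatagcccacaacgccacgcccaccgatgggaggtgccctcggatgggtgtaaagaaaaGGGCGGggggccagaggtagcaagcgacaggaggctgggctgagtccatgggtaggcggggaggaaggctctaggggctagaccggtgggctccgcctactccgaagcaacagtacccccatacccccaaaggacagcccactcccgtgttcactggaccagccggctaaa
Mcm4/Prkdc: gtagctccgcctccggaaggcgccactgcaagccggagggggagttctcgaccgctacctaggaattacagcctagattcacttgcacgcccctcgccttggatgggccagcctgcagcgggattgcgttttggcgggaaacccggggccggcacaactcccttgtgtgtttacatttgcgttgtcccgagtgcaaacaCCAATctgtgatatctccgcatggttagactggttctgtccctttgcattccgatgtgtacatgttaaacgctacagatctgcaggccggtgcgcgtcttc

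The next 3 are textbook pairs. Hspd1/Hspe1 at chr1:55087922-55088158 encodes the mitochondrial chaperonin and its co-chaperonin, Brca1/Nbr1 at chr11:101551945-101552117 a DNA repair protein and an autophagy receptor, and Col4a4/Col4a3 at chr1:82586839-82586931 a pair of basement membrane collagen chains.
Hspd1/Hspe1: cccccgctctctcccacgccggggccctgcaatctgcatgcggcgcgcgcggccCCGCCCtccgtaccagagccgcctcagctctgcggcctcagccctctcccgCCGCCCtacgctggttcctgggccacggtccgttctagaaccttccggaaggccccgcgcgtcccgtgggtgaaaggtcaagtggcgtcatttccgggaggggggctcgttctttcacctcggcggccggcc
Brca1/Nbr1: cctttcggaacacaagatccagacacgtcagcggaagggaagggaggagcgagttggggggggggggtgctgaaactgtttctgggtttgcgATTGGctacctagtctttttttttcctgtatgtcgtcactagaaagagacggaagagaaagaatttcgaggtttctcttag
Col4a4/Col4a3: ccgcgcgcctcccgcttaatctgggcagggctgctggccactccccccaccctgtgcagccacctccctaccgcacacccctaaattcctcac

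The last 3 are the strongest region with a peak in both BPA libraries alone, Gm26705/Map6 at chr7:99267208-99267457, the strongest with a peak in both control libraries alone, H2ac22/H2bc22 at chr13:21787238-21787498, and the coding pair with the closest start sites among those without a peak, Best1/Rab3il1 at chr19:10001623-10001679.
Gm26705/Map6: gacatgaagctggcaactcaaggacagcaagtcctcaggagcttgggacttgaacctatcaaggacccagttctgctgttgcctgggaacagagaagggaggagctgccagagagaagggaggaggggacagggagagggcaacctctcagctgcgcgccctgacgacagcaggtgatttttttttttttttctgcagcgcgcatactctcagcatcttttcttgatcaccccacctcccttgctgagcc
H2ac22/H2bc22: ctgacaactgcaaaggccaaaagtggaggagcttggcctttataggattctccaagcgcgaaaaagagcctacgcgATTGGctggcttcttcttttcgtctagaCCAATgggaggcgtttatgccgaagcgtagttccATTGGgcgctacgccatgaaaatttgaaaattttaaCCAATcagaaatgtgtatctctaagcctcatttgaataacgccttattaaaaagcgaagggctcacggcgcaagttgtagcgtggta
Best1/Rab3il1: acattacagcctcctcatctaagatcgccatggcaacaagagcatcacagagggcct

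The lists held 82665 and 88911 peaks in the control libraries and 72375 and 98060 in the BPA libraries. Read totals are not in the lists. The pile-up at a summit, meaning the number of fragments stacked there, was solved from each peak's fold and p-value, and its median over all peaks was 22 and 23 in the controls, 19 in BPA 1 and 38 in BPA 2. All 7 adipocyte markers searched, among them the adipokine genes Adipoq and Lep, had a peak at a start site in all 4 libraries, and none of 3 hepatocyte markers had one in any. Of 3 endothelial markers, 1 had a peak in each control and 3 in each BPA library. Of 6 leukocyte markers, 2 and 3 had one in the controls and 4 in each BPA library, and the T cell marker Cd3e had none in any library. Mesothelial markers had a peak for 2 of 3 genes in each library other than BPA 2, where 1 had one.

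Nearly all regions between coding genes were open. A region counted as open when a peak overlapped it by at least 1 bp. Of the 1535 regions, 1365 (88.9%, 95% Wilson interval 87.3 to 90.4%) were open in control 1, 1373 (89.4%) in control 2, 1379 (89.8%) in BPA 1 and 1411 (91.9%, 90.5 to 93.2%) in BPA 2. These intervals cover counting error only. The mean was 89.2% ± 0.369 (SD, n = 2) in the controls and 90.9% ± 1.47 (SD, n = 2) with BPA. The groups did not overlap, but 2 libraries against 2 can be arranged in 6 ways and cannot give a two-sided exact permutation p below 0.33, so no test between groups was made here or later. A peak was present in all 4 libraries at 1340 regions (87.3%) and in none at 114.

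Regions of 2 coding genes were open in 96.3%, 96.6%, 96.3% and 97.0% of cases in control 1, control 2, BPA 1 and BPA 2. Regions of a coding and a noncoding gene were open in 81.1%, 82.1%, 83.6% and 87.7%, and those of 2 noncoding genes in 28.6%, 25.7%, 25.7% and 28.6%. Coding and noncoding pairs were thus open less often than coding pairs in 4 of 4 libraries, by 12.9 percentage points on average (SD 2.63, n = 4). The exact permutation test over the 16 sign patterns of the 4 library differences gave a two-sided p of 0.13, the smallest it can give, also after Benjamini-Hochberg adjustment over the 14 such tests made, so none of these tests can pass 0.05. CpG content differed between the classes. A region was called CpG-rich with a G+C share of at least 50% and an observed to expected CpG ratio of at least 0.6, which held for 85.2% of coding, 74.1% of coding and noncoding, and 28.6% of noncoding pairs. Among CpG-rich regions the coding pairs were open in 98.1 to 98.7% and the coding and noncoding pairs in 91.0 to 96.8%. Among CpG-poor regions the shares were 84.4 to 87.4% and 52.6 to 61.8%.

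**Figure D1:**
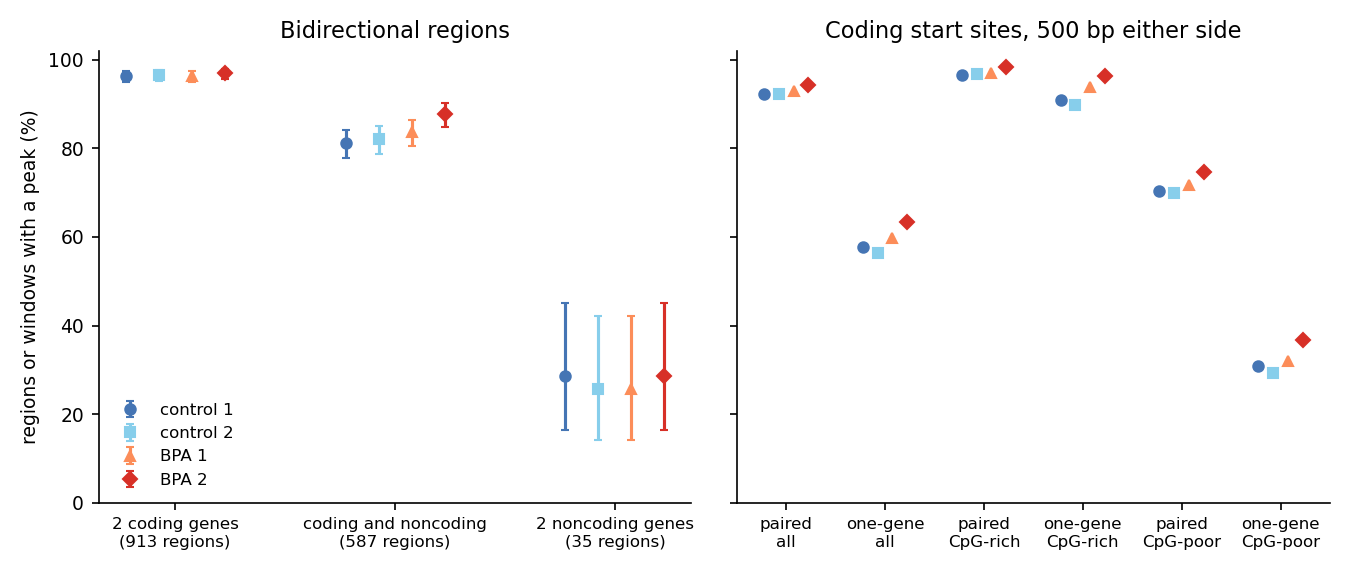
Share of bidirectional regions (left, with 95% Wilson intervals) and of coding start sites (right, 500 bp either side) with a peak in each of the 4 libraries, in percent. Coding pairs sit between 96.3 and 97.0%, and one-gene start sites between 56.4 and 63.4%.

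Start sites of paired coding genes were open far more often than those of coding genes in none of these pairs, called one-gene here. Both were scored in windows of 500 bp either side of 1 start site a gene. For a paired gene this was the start site of its closest pair, and for the others the one that most curated transcripts share. Coding genes of pairs whose 5′ ends overlap were left among the one-gene genes, and the part of this was not tested. Peaks lay at 92.2%, 92.3%, 92.9% and 94.4% of the 2384 paired start sites in control 1, control 2, BPA 1 and BPA 2. At the 17637 one-gene start sites the shares were 57.8%, 56.4%, 59.6% and 63.4%. The difference was 33.6 percentage points (SD 2.04, n = 4), with paired start sites higher in 4 of 4 libraries (exact permutation test, p = 0.13). It was 4.49 points (SD 2.25) among CpG-rich windows and 39.5 points (SD 1.03) among CpG-poor ones. Of the paired windows 83.4% were CpG-rich, against 44.8% of the one-gene windows. A window of a paired gene also holds the start site of its partner where the spacing is under 500 bp, and the part of this in the difference was not tested.

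Peaks at paired start sites also stood higher in their lists. The rank of a peak is its place in its library's list ordered by q-value, in percent of the list, so that a low value is a strong peak. The median rank of the best peak at paired start sites was 4.55%, 5.04%, 5.12% and 3.82% in control 1, control 2, BPA 1 and BPA 2, and 10.7%, 12.5%, 10.6% and 7.76% at one-gene start sites. Paired start sites had the lower rank in 4 of 4 libraries, by 5.77 points on average (SD 1.47, exact permutation test, p = 0.13), and by 3.88 points (SD 1.29) among CpG-rich windows. Their peaks were also wider in 4 of 4 libraries, with medians of 1283, 1086, 1090 and 1354 bp against 1183, 949, 982 and 1284 bp. The mean difference in width was 104 bp (SD 27.3, p = 0.13 by the same exact test) and 43.4 bp (SD 24.5) in CpG-rich windows. Widths differed more between libraries than between paired and one-gene start sites, and the lowest width in a list ran from 184 bp in control 2 to 299 bp in BPA 2.

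**Figure D2:**
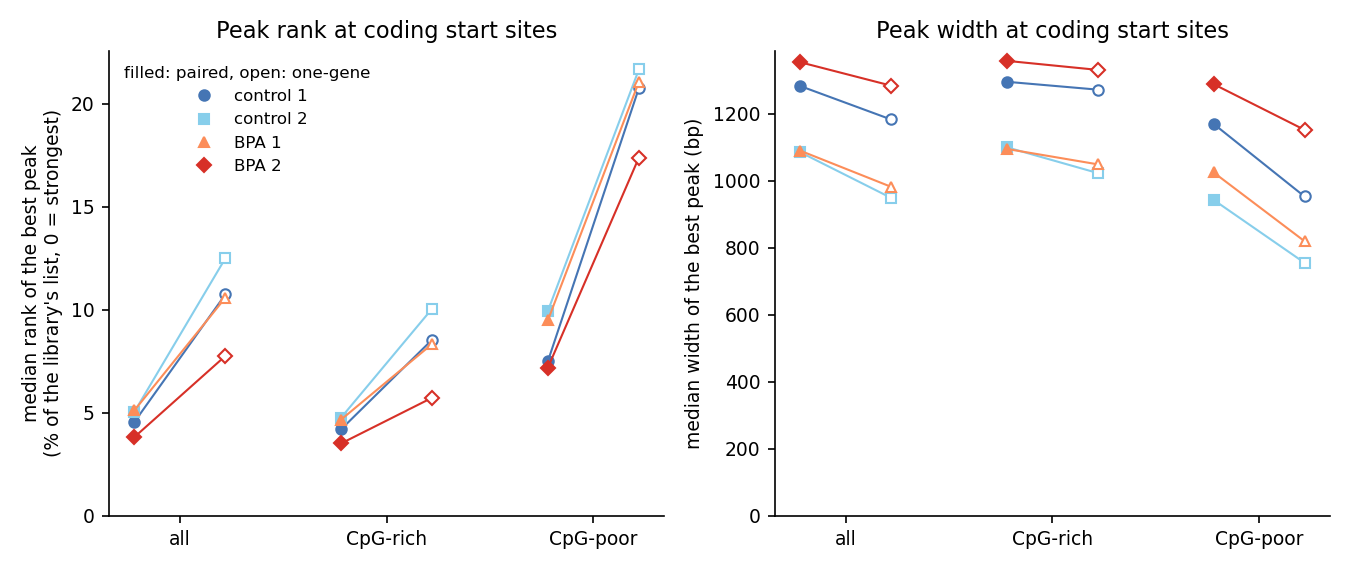
Median rank (left, percent of the list) and median width (right, bp) of the best peak at paired (filled) and one-gene (open) coding start sites, with a line for each library. Paired start sites have the lower rank and the wider peak in all 4 libraries, and the gap in rank is 5.77 points on average over all windows and 3.88 in CpG-rich ones.

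One peak usually spanned both start sites. Of the open regions, 91.8%, 88.3%, 92.4% and 93.7% had a best peak that covered both start sites in control 1, control 2, BPA 1 and BPA 2, and 0.425 to 2.62% held more than 1 peak. The median width of these peaks was 1079 to 1370 bp beside a median spacing of 149 bp, so spanning was likely from width alone. At a spacing above 300 bp the shares were 78.7%, 70.3%, 77.0% and 81.5%. Over all classes of pair together, wider spacing went with slightly stronger and wider peaks. Across open regions Spearman's rank correlation of spacing with rank was -0.112 to -0.137, and of spacing with width 0.0948 to 0.211, as a description over regions that share a library. The median rank was 6.10%, 7.94%, 7.07% and 5.12% at a spacing under 100 bp and 4.19%, 4.59%, 3.96% and 2.98% above 300 bp. In coding pairs it was 6.02%, 7.28%, 7.02% and 4.87% under 100 bp and 3.17%, 4.01%, 3.18% and 2.21% above 300 bp. In coding and noncoding pairs it was 6.53%, 8.64%, 7.21% and 5.61% under 100 bp and 9.13%, 11.8%, 7.72% and 5.47% above. There the peaks above 300 bp were thus weaker in each library other than BPA 2. Regions of wider spacing are also longer, and the part of this was not tested.

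Summits lay between the start sites more often than even placement over the region would give. This is a low bar, because each region is centred on 2 start sites and summits fell close to them. The excess was therefore likely beforehand and does not show that summits favour the stretch between the start sites. At a spacing under 100 bp most summits lay outside that stretch. The best-peak summit was between the start sites at 49.1% and 55.3% of open regions in the controls and at 43.2% and 40.5% with BPA. The stretch between the start sites made up 5.30% of the region length on average at a spacing under 100 bp, 14.9% at 100 to 300 bp and 33.9 to 34.1% above. In these 3 classes the summit lay between the start sites at 17.8%, 57.9% and 76.5% of open regions in control 1, 26.8%, 65.0% and 76.6% in control 2, 14.0%, 50.2% and 69.9% in BPA 1, and 10.6%, 45.8% and 70.7% in BPA 2. Both controls were above both BPA libraries in each class. The same order was seen at the 1340 regions open in all 4 libraries, with 49.7% and 55.6% against 43.6% and 41.7%.

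The summit fell a median of 67.5 to 93.5 bp from the midpoint of the start sites, and 54 to 70 bp from the nearer start site. In the 1340 regions open throughout, the best summits of both controls were a median of 53 bp apart and those of both BPA libraries 43 bp, against 64 to 81 bp for the 4 pairings of a control with a BPA library. The groups also differed at one-gene start sites. There the median summit was 25 and 41 bp upstream of the start site in the controls and 15 and 36 bp downstream with BPA. At paired start sites it was 89 and 78 bp upstream in the controls and 90 and 87 bp with BPA, values that overlapped. The lowest peak widths (227 and 184 bp in the controls, 239 and 299 bp with BPA) and the median pile-ups at these 1340 regions (72 in each control, 108 in BPA 1 and 350 in BPA 2) did not overlap between the groups either, and their part in the place of the summit was not tested.

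**Figure D3:**
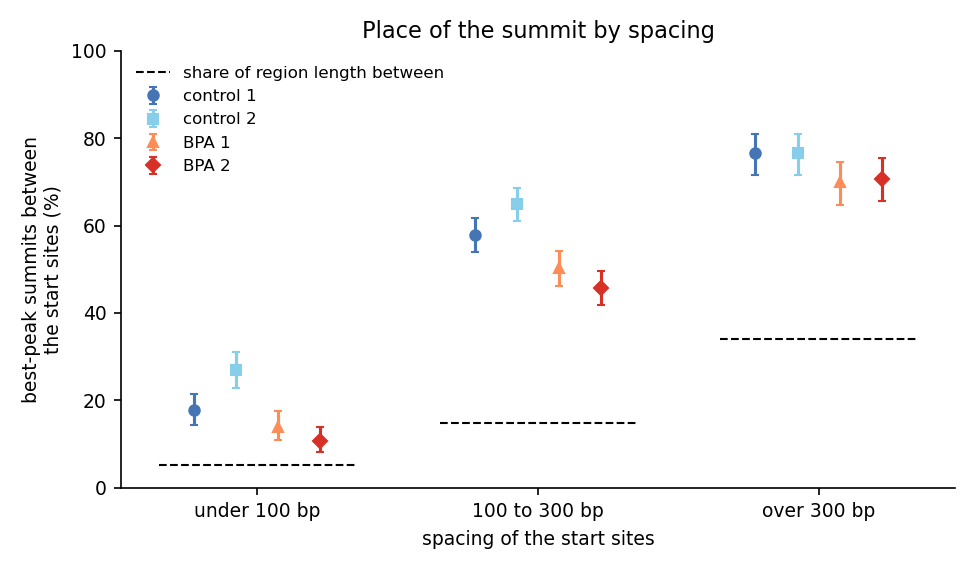
Share of best-peak summits between the start sites (percent of open regions, with 95% Wilson intervals) by spacing and library. The dashed lines mark the share of the region length between the start sites, and all points lie above them. These lines take no account of summits lying close to start sites.

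Where a coding gene faced a noncoding one, the summit was nearer to the coding start site at 48.3% (43.9 to 52.8%) of open regions in control 1 and 44.2% (39.8 to 48.7%) in control 2. With BPA this was so at 55.2% (50.8 to 59.5%) and 62.8% (58.5 to 66.8%). The counting interval spanned an even division in control 1, lay below it in control 2 and lay above it in both BPA libraries. In coding pairs the summit was nearer to the minus-strand gene at 48.4 to 53.6%. There the interval of control 1 (50.3 to 56.9%) also lay above an even division, though the choice of pairs favours no side.

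The textbook pairs showed how widely accessibility varied among well-known shared promoters. Of 24 textbook pairs searched, 11 met the rule, and all 11 were open in all 4 libraries. The mean rank over the 4 libraries was below the median of all regions open throughout (5.03%) for 7 of them and above it for 4. Ranks are given in the order control 1, control 2, BPA 1 and BPA 2. Mcm4/Prkdc ranked at 0.0218%, 0.168%, 0.285% and 0.221%, with a pile-up of 147, 144, 204 and 574 fragments. Atm/Npat, the DNA damage kinase and a coactivator of histone genes, ranked at 1.03%, 0.599%, 0.204% and 0.501%. Brca1/Nbr1 ranked at 1.43%, 1.18%, 0.728% and 0.572%, and its summit lay on the Nbr1 side, 672, 729, 605 and 422 bp from the Brca1 start site at a spacing of 152 bp. The summits of both controls were thus outside the region. These 3 pairs stood among the strongest few percent of each list.

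Mrps12/Sars2, a mitochondrial ribosomal protein and the mitochondrial seryl-tRNA synthetase, ranked at 1.44%, 1.15%, 1.14% and 0.991%. Psmb9/Tap1, an immunoproteasome subunit and the antigen peptide transporter, ranked at 1.89%, 2.18%, 1.61% and 0.937%. Sirt3/Psmd13, a mitochondrial deacetylase and a proteasome lid subunit, ranked at 1.62%, 6.88%, 2.45% and 0.240%. The Sirt3/Psmd13 values spanned a wide range within each group, so its groups overlapped. Hspd1/Hspe1 ranked at 2.33%, 3.44%, 5.91% and 2.75%, with summits 212, 236, 235 and 135 bp from the Hspd1 start site at a spacing of 216 bp.

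The 4 weaker textbook pairs were Tsc2/Nthl1, Wrap53/Trp53, Dand5/Gadd45gip1 and Col4a4/Col4a3. Tsc2/Nthl1, a growth regulator and a base excision repair glycosylase, ranked at 14.9%, 14.7%, 10.6% and 4.98%. Wrap53/Trp53, a telomerase cofactor and the tumour suppressor p53, ranked at 21.3%, 25.4%, 9.58% and 6.70%. Its best summit lay 839 bp from the Wrap53 start site, on the Wrap53 side, in control 2, BPA 1 and BPA 2, which is outside the region, and between the start sites in control 1. Dand5/Gadd45gip1, a Nodal antagonist and a mitochondrial ribosomal protein, ranked at 19.8%, 22.9%, 14.7% and 8.60%. In these 3 pairs both BPA ranks were lower than both control ranks. The same order was seen at Atm/Npat, Brca1/Nbr1, Mrps12/Sars2 and Psmb9/Tap1. It held at 39.2% of all regions open throughout, beside 41.6% of one-gene start sites open throughout. Col4a4/Col4a3 was the weakest, at 60.5%, 33.6%, 64.0% and 37.9%, with pile-ups of 21, 29, 13 and 37 fragments and overlapping groups.

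The coding pairs with the lowest mean rank were Pdcd10/Serpini1, Mcm4/Prkdc, Erp44/Invs, Ranbp10/Tsnaxip1, Ccdc115/Imp4 and Prr11/Ska2. Their spacings were 641, 466, 125, 536, 157 and 547 bp, so 4 of the 6 were wider than the upper quartile. Pdcd10/Serpini1 ranked at 0.0750%, 0.0337%, 0.199% and 0.176%, with a pile-up of 171, 193, 246 and 668. Prr11/Ska2, whose second gene is a kinetochore component, was the most even of the 6, at 0.235%, 0.268%, 0.249% and 0.246%. The summit of Mcm4/Prkdc was at the same base, 146 bp from the Mcm4 start site, in 3 libraries and at 271 bp in control 1. That of Ranbp10/Tsnaxip1 was 116 bp from the Ranbp10 start site in 3 libraries and 331 bp in BPA 2.

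**Figure D4:**
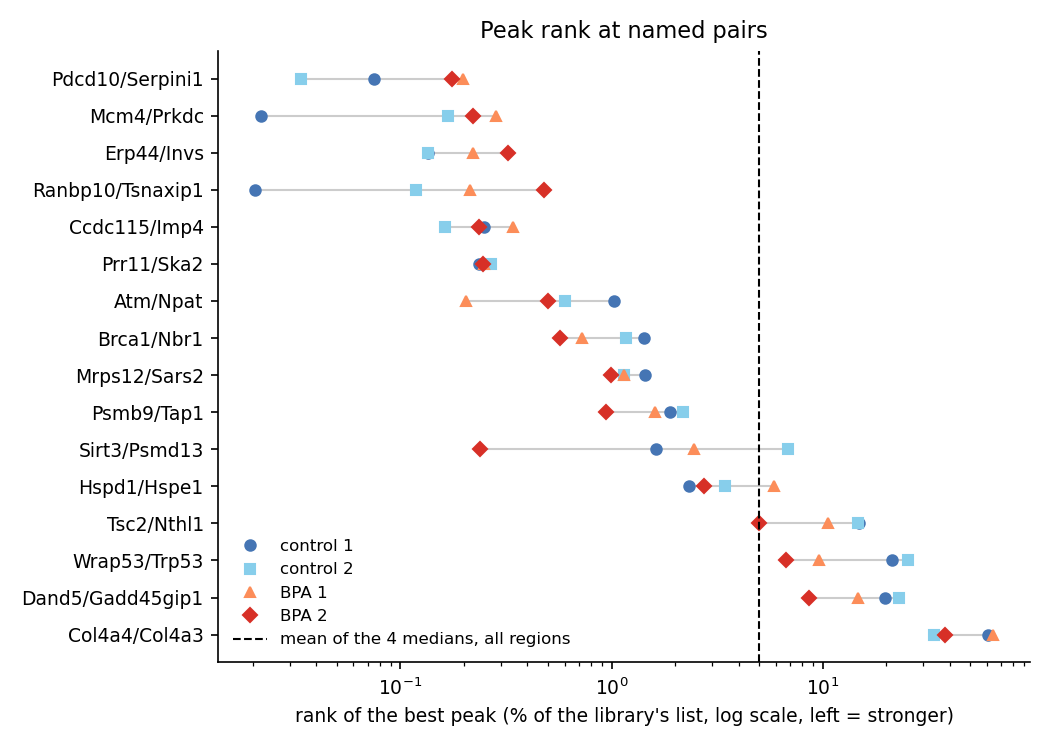
Rank of the best peak (percent of the list, log axis) in the 4 libraries at the textbook pairs and the 6 strongest coding pairs. The dashed line is the mean over libraries of the median rank of all regions, and Col4a4/Col4a3 lies to its right in every library, between 33.6 and 64.0%.

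Function lists differed in how many of their genes were paired and in how strong the peaks were. These counts are descriptions, and the lists were not tested. DNA repair and replication had 66 of its 159 coding genes in a pair (41.5%, beside 11.9% of all coding genes). The share was 38.5% for the mitochondrial ribosome, 38.7% for RNA polymerase and transfer RNA synthetases, 33.3% for oxidative phosphorylation, 28.6% for the proteasome and chaperonin and 17.5% for the cytosolic ribosome. The proteasome and chaperonin list also holds Hsp70 genes. Zinc finger proteins had 9.49%. Only 2 of 66 adipocyte lipid and hormone genes (3.03%) and 2 of 42 collagen genes (4.76%) were paired.

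Regions with a DNA repair or replication gene were open in all 4 libraries at 64 of 65. The share open in all 4 was 87.3% over all regions and 95.3% over coding pairs, and the counts of this and the following lists stand beside these. Their mean ranks ran from 0.174% at Mcm4/Prkdc to 33.8% at Eme2/Mrps34, with a median of 4.49% beside 5.03% for all regions. The exception was Draxin/Mad2l2, with a peak in BPA 2 alone. All 16 regions of the proteasome and chaperonin list were open throughout, with the lowest list median of 2.66%. Hspa14/Cdnf, an Hsp70 protein and a neurotrophic factor, was the strongest there at a mean of 0.808%, and Hspa1a/Hspa1l, the stress-inducible Hsp70 and its testis relative, the weakest at 36.6%. Hspa1a/Hspa1l ranked at 43.7%, 73.7%, 15.8% and 13.3%, with both BPA ranks below both controls. That order held at 39.2% of all regions open throughout.

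All 29 regions with a mitochondrial ribosome gene were open throughout, with a median of 7.45%, from Mrpl18/Tcp1 (0.299%), which joins the mitochondrial ribosome to the cytosolic chaperonin, to Lrrc46/Mrpl10 (38.7%). Oxidative phosphorylation regions were open at 35 of 36, from Mrpl47/Ndufb5 (1.34%) to Gm27021/Cox4i1 (13.8%), with a median of 4.46%. The exception was Rps28/Ndufa7, a ribosomal protein and a complex I subunit whose start sites are 10 bp apart, which had no peak in control 1 and ranked at 65.7%, 55.2% and 28.5% in the others. It was also the exception among the 15 cytosolic ribosome regions, whose median was 7.69%, from Gm32950/Rpl22l1 (1.06%) to Sphk2/Rpl18 (22.3%). All 23 regions of RNA polymerase subunits and transfer RNA synthetases were open in all 4 libraries, with a median of 4.76% and the weakest peak at Polr2l/Tspan4 (26.6%). Zinc finger regions were open at 36 of 39, with a median of 4.97%, from Zbtb5/1700055D18Rik (0.700%) to E530011L22Rik/Zfp651 (32.2%). Zfp942/Zfp943, without a peak in BPA 1, and Zfp944/Zfp758, with one in control 1 alone, were among the other 3.

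Histone genes were the exception among the paired families. They had 29 of 76 genes in a pair (38.2%), yet 10 of their 16 regions were open throughout and 3 had no peak at all. The strongest was H2ac6/H2bc4, at 1.00%, 2.91%, 7.17% and 5.72%, and the weakest H1f10/Gm5577 at a mean of 42.5%. No peak was listed at H2bc23/H2ac23, H2ac24/H4bc24 and H2bc1/H2ac1. H2bc7/H2ac7 had one in control 2 and BPA 1, and H2bc13/H2ac13 in every library but BPA 1. Histone genes are near-identical copies of each other and uniquely mapped reads were kept, so these counts are uncertain.

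The adipocyte list had 2 regions, neither open throughout. Gm35986/Elovl6, with the fatty acid elongase gene, had a peak in control 1, control 2 and BPA 2 at ranks of 13.9%, 47.6% and 11.8%. Their summits lay 1930 to 2034 bp from the Gm35986 start site, on the Elovl6 side and outside the region. Gng3/Bscl2, with the seipin gene of lipid droplet formation, had no peak in any library, but both other curated start sites of Bscl2, over 1 kb away, had one in all 4.

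Altogether 23 of the 913 coding pairs had no peak in any library. Those with the closest start sites were Best1/Rab3il1 (36 bp), Gm3417/9030025P20Rik (52 bp), Dcst1/Dcst2 (66 bp), Usp37/Plcd4 and Wfdc8/Wfdc6b (74 bp each) and Slc30a3/Dnajc5g (75 bp). Several act in other tissues: Best1 is a retinal chloride channel, Dcst1 and Dcst2 are sperm membrane proteins, and Slc30a3 loads zinc into synaptic vesicles. The nearest peak to the Best1/Rab3il1 region was 393, 249, 187 and 174 bp beyond its edge in control 1, control 2, BPA 1 and BPA 2. For Wfdc8/Wfdc6b it was over 26 kb away, at 27504, 27472, 26956 and 26680 bp. In 4 of the 23 pairs a gene had another curated start site over 1 kb away that was open in all 4 libraries, Rab3il1 and the deubiquitinase Usp37 among them. Of the 23 regions, 16 were CpG-poor, against 135 of all 913 coding pairs.

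Few regions were open in one group alone. A peak in both BPA libraries and neither control was found at 14 regions (0.912%), beside 2.86% of one-gene coding start sites with this pattern. A peak in both controls and neither BPA library was found at 2 regions (0.130%), beside 0.431% of one-gene start sites. A peak in all 4 was found at 52.8% of one-gene start sites. The share of bidirectional regions with either one-sided pattern was thus below that of one-gene start sites. In windows of the same size at paired coding start sites the shares were 0.839% and 0.126%. But 87.3% of the regions were open in all 4 libraries, which leaves fewer that can show a one-sided pattern. The regions are also longer than the windows and include noncoding pairs. The part of these in the lower shares was not tested. Another 18 regions were open in BPA 2 alone, 3 in control 1 alone and 1 each in control 2 and BPA 1 alone. These patterns were not counted over one-gene start sites, so the counts have no background and are not read further. BPA 2 also had the longest list, with 98060 peaks. Leaving out a library moved the count of 14 to 23 without control 1, 26 without control 2, 32 without BPA 1 and 15 without BPA 2, beside 5.16%, 4.05%, 5.37% and 3.08% of one-gene start sites. The count of 2 moved to 3, 5, 4 and 8, beside 1.09%, 1.17%, 0.607% and 1.17%.

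Of the 14 BPA regions, 12 paired a coding with a noncoding gene, as did 587 of all 1535 regions. The pattern was seen at 2.04% of such pairs and 0.219% of coding pairs. Of these 2 classes, 78.5% and 95.3% were open in all 4 libraries, which leaves coding pairs less room for a one-sided pattern. Peaks at the 14 regions were weak, with a median rank of 47.6% in BPA 1 and 32.6% in BPA 2, and median pile-ups of 21.5 and 54.5 fragments. In 8 of the 14 both BPA summits lay inside the region. In 4 both controls had a peak within 1 kb of it, and in 5 neither had one within 5 kb. Gm26705/Map6, with a gene of a microtubule-stabilising protein, ranked at 20.9% and 13.8%. Its BPA summits were 1056 and 1044 bp from the Gm26705 start site, outside the region, and the nearest control peaks were 282 and 276 bp from its edge. Gm34000/Septin4, with a septin gene, ranked at 21.6% and 21.8%, with summits 32 and 18 bp inside Gm34000 and control peaks 11191 and 11160 bp away. Septin4 has 3 other curated start sites, and 2 of them had a peak in all 4 libraries, so the pattern is that of 1 start site. Arhgef15/Gm32273, with a gene of a guanine nucleotide exchange factor, ranked at 29.1% and 29.4%.

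The coding pair 2700097O09Rik/Srp54a, with a gene of the signal recognition particle, ranked at 36.7% and 26.5%, with summits 319 and 324 bp from the first start site at a spacing of 386 bp. Srp54a has close copies in the mouse genome, so its mapping is uncertain. The other coding pair was Dpysl2/Pnma2, at 55.3% and 92.6%. Another curated start site of Dpysl2 had a peak in all 4 libraries. Pile-ups at the 1340 regions open throughout were a median of 72 fragments in each control, 108 in BPA 1 and 350 in BPA 2, and endothelial and leukocyte markers had more peaks with BPA, as given above. Their part in these 14 regions was not tested, nor was that of DNA variants between the mice of this outbred stock.

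The 2 control regions were H2ac22/H2bc22 and Lmo3/A830011K09Rik. H2ac22/H2bc22, a pair of core histone genes with 4 CCAAT boxes in the stretch printed above, ranked at 6.26% and 9.30% in the controls, with pile-ups of 56 and 52 and peaks only 259 and 302 bp wide. The nearest BPA peaks were 7005 and 2905 bp from the region. Lmo3/A830011K09Rik, with a LIM-domain transcription regulator gene, ranked at 67.5% and 58.1%, with no BPA peak within 250 kb.

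Among the 1340 regions open throughout, both BPA ranks were lower than both control ranks at 525 (39.2%), beside 41.6% of the 9313 one-gene start sites open throughout. Both control ranks were lower at 295 (22.0%), beside 17.8%. The difference between these shares was not tested.

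Promoter sequence differed between paired and one-gene coding genes. Windows from 250 bases before to 50 bases after the start site were searched on both strands, and for a TATA box (TATAAA) on the sense strand, starting 45 to 20 bases before the start site. Windows of close partners overlap, so a motif can count for both. The ETS/GABPA motif was in 13.1% of 2384 paired and 4.58% of 17637 one-gene promoters, YY1 in 6.75% and 2.80%, NRF1 in 6.25% and 3.36%, CRE in 4.45% and 2.23%, the GC box in 68.8% and 46.3%, the E-box in 10.7% and 7.81% and the CCAAT box in 41.7% and 38.1%. The TATA box was in 0.839% of paired and 3.35% of one-gene promoters, and the CTCF core in 4.74% and 5.28%. Of the 9 motifs, 7 were more frequent in paired promoters, and 5 among CpG-rich promoters. There the ETS/GABPA shares were 14.2% and 8.18%, those of YY1 7.65% and 4.31%, and those of the GC box 73.5% and 74.9%.

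**Figure D5:**
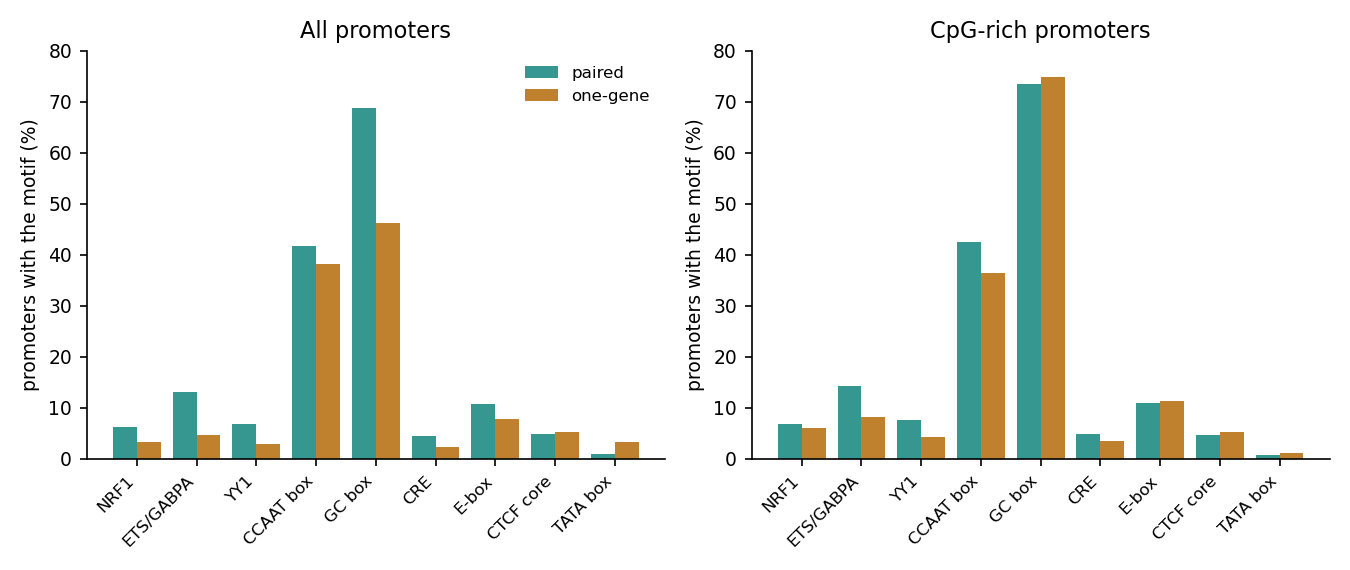
Share of promoters (percent of windows from 250 bases before to 50 after the start site) with each motif, for paired and one-gene coding genes, over all promoters (left) and CpG-rich ones (right). The ETS/GABPA motif is in 13.1% of paired and 4.58% of one-gene promoters, and the GC box difference is seen over all promoters only.

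Of the 8 motifs searched in the central 300 bases of each coding region, the CCAAT box went with the widest gap in rank averaged over the 4 libraries. The 392 coding regions with a CCAAT box had a median rank of 2.46%, 2.80%, 3.22% and 3.15% in control 1, control 2, BPA 1 and BPA 2, and the 521 without one 5.66%, 7.08%, 5.81% and 3.75%. In coding and noncoding pairs the medians were 5.47%, 5.53%, 5.75% and 4.88% in 239 regions with the box and 7.82%, 9.95%, 7.80% and 5.54% in 348 without. The direction was the same in 4 of 4 libraries in both classes. A GC box made less difference in coding pairs, with 3.88%, 4.60%, 4.24% and 3.34% with it and 4.38%, 4.55%, 5.51% and 4.07% without. Regions with an ETS/GABPA motif ranked at 4.80%, 5.23%, 5.69% and 3.70% in coding pairs against 3.89%, 4.53%, 4.51% and 3.44% without it, the opposite order. In coding and noncoding pairs the 44 regions with an ETS/GABPA motif ranked at 4.03%, 5.46%, 4.90% and 3.49% and the 543 without it at 6.94%, 8.57%, 7.19% and 5.35%, so the order turned with the class of pair. The CCAAT box was chosen for description after its values were seen, and a match does not show that the factor binds.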

How the data were processed

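ATAC-seq was done by the Omni-ATAC protocol on nuclei of visceral adipose tissue. The authors trimmed reads with Trim Galore, mapped them to mm10 with Bowtie2 2.3.5.1 (fragments up to 2 kb), kept uniquely mapped reads, removed duplicates with SAMtools and ran MACS2 2.2.7.1 per library, without pooling. Its further options are not given in the sources used here. Each deposited list gives a score (10 times the −log10 q-value as a whole number), the fold of the pile-up over the local background, the −log10 p-value, the −log10 q-value and the summit. The lowest −log10 q-value was 1.30 to 1.31, which is a q-value of 0.05. Widths and summits were used as deposited. Ranks were computed from the −log10 q-value within each list. Pile-ups were solved from fold and p-value, and for 100% of peaks the solution returned the p-value with a relative error under 1e-04.

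Start sites came from RefSeq on GRCm38.p6 (curated transcripts). Of several divergent start sites of a pair, the closest were taken. The best peak of a region was the one with the highest −log10 q-value. For genes in none of these pairs, the start site shared by most curated transcripts was used. Python 3.11.15 with numpy 2.4.6, scipy 1.17.1 and pandas 2.3.3 was used, and scripts were tested on simulated data. Differences within libraries were tested by exact permutation of the signs over 4 libraries, two-sided, with Benjamini-Hochberg adjustment over 14 tests. The members, gene lists and motifs were chosen with earlier results of these data known. Named pairs are the textbook pairs, the 6 coding pairs of lowest mean rank, the 4 strongest of each one-sided pattern, the 6 closest coding pairs without a peak and the extremes of each list, of which some results are not reported here. Others were named after their values were seen: the 2 exceptions in a list, Draxin/Mad2l2 and Rps28/Ndufa7, both adipocyte regions, the histone pairs, Dpysl2/Pnma2 and the zinc finger exceptions. Alternatives covered the peak threshold, overlap, start sites, spacing, small RNA genes, CpG content and each library left out.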

Additional observations from a re-analysis of the deposited data

How the results depend on the processing

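No paired analysis was possible because the values compared between the groups are counts and shares that come from no test, and the labels tie no replicate number to a shared animal, litter or day. There were 108 alternative values, and a reversal was defined only for the 4 tested differences. The share of summits nearer to the coding start site was 52.6% on average over the 4 libraries. It was 49.9% with the farthest start sites and 49.2% without BPA 2, on the other side of an even division. Its other alternatives stayed above an even division. Shares and counts moved by more than the spread between libraries or 1.5 times in 12 cases. All 48 alternative values of the 4 tested differences kept their sign, but their sizes changed. With the best 20000 peaks of each library the difference in width was 33.3 bp in place of 104 bp, that in rank -2.70 in place of -5.77 points, that in open start sites 41.9 in place of 33.6 points, and that between coding and noncoding pairs and coding pairs -21.5 in place of -12.9 points. The share of open regions (90.0%) was 88.4% with −log10 q-values of at least 5, 81.5% with the best 20000 peaks of each library and 87.0% with the summit inside the region. With the best 20000 peaks, 66 of 1535 regions were open in both BPA libraries alone, beside 4.94% of one-gene start sites. Those open in both controls alone numbered 4, beside 0.516%. With the summit inside, 7 of 1535 were open in the controls alone, beside 0.794% of one-gene start sites. Leaving out each library gave 15 to 32 and 3 to 8 regions for the BPA and control patterns, with the one-gene shares given above. In CpG-rich windows the difference in open start sites was 4.49 points and that in width 43.4 bp. Leaving out each library in turn gave summits between the start sites at 44.3 to 49.2%. The lists hold no read totals, so depth limits every absent peak: a region without a peak was below the caller's threshold, not shown to be closed.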

Other observations

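Pairs outside the rule were also looked at. On chromosome X, 41 bidirectional regions met the same spacing, and 33, 32, 31 and 33 of them were open in control 1, control 2, BPA 1 and BPA 2, with 31 open in all 4 (75.6%). Of the 25 coding ones, 21 were open in all 4. On chromosomes 1 to 19, 280 further pairs had curated 5′ ends that overlap by up to 500 bp, and 202 of them (72.1%) were open in all 4 libraries. Among the 81 coding ones 75 were open in all 4. A peak in both BPA libraries alone was seen at 12 of the 280 (4.29%, beside 2.86% of one-gene coding start sites) and in both controls alone at 0 (beside 0.431%).

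Among the textbook pairs that did not meet the rule, some had such overlapping 5′ ends, and the 3 given here were open in all 4 libraries. Ppat/Paics, with genes of purine synthesis enzymes, overlaps by 276 bp and ranked at 1.77%, 2.37%, 0.511% and 0.0326% in control 1, control 2, BPA 1 and BPA 2. Surf1/Surf2 overlaps by 122 bp and ranked at 11.3%, 13.2%, 10.3% and 7.64%. Col4a1/Col4a2, the more widely expressed basement membrane collagen pair, overlaps by 21 bp and ranked at 30.1%, 55.4%, 32.8% and 14.1%. Both basement membrane pairs were thus among the weaker promoters here, and the groups of Col4a1/Col4a2 overlapped.

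Some regions open throughout changed place strongly in the lists. These were named after their values were seen. Ncdn/AU040320 ranked at 6.70% and 5.51% in the controls and 0.0124% and 0.0255% with BPA. Rita1/Ddx54 ranked at 1.11% and 3.08% against 0.0193% and 0.00918%. In the other direction, Tmx2/Med19, with a subunit of the Mediator complex, ranked at 0.0145% and 0.0225% in the controls and 0.377% and 2.58% with BPA, with its summit 100 to 103 bp from the Tmx2 start site in all 4 libraries. Miip/Fv1, with the retrovirus restriction gene Fv1, ranked at 0.0169% and 0.101% against 1.57% and 3.92%. No test was made, and the share of all regions with such an order is given above. The study reports that variants between CD-1 mice can bias mapped reads and recommends leaving out regions that hold them. Such variants were not looked at here, neither at these regions nor at those open in one group alone.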
